A study of Mus musculus with 8 samples.

Results

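The heart T-box genes Tbx1, Tbx2, Tbx3, Tbx5, Tbx18 and Tbx20 were followed through 3 lists of accessible chromatin from mouse embryonic stem cell-derived cardiac progenitors. A peak was taken as belonging to one of these 6 genes when its summit had that gene as the nearest RefSeq protein-coding gene on mm10, at no more than 100 kb. This gave 148 of the 172983 peaks in the 3 lists: 40 at day 5 (D5), 50 in the day 7 (D7) control and 58 at D7 with GLI1. Overlapping peaks within a list were joined into regions, of which 33, 30 and 39 belonged to these genes, and regions that overlapped between lists made 65 loci.

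The assay was ATAC-seq, in which the Tn5 transposase cuts and tags open DNA, so that a peak marks accessible chromatin and not expression. All libraries came from the line named GLI1-FTA, on the A2Lox.cre strain, differentiated towards the heart. There were 2 untreated libraries at D5, 3 untreated libraries at D7, and 3 libraries at D7 that had received 500 ng/ml doxycycline for the last 48 hours to overexpress GLI1, the transcription factor that acts at the end of Hedgehog signalling. No control library received doxycycline, and what the drug does by itself cannot be told apart from what GLI1 does. Each group was deposited as 1 list, so no difference between groups has a replicate check, no test between conditions was possible, and the number of accessible cells cannot be told apart from the degree of accessibility per cell.

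T-box factors share a DNA-binding domain that recognises short elements in the control regions of their targets. TBX5 and TBX20 drive the programme of the working chamber muscle, whereas TBX2 and TBX3 repress that programme in the atrioventricular canal, and TBX3 also in the conduction system. TBX1 keeps the second heart field of the pharynx growing, in a region where Hedgehog ligands are present, and TBX18 marks the sinus venosus and the epicardium.

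The sequence just upstream of a start site was at hand for 3 of the 6 genes, from RefSeq promoter windows of GRCm38.p6 (mm10). They are shown because these start sites differed in which lists had a region there. Each is the 250 bases before a start site, 5′ to 3′ on the minus strand, on which Tbx1, Tbx18 and Tbx20 lie. Capitals mark bases inside a region of every list that had a region in the window.
Tbx1, inner start: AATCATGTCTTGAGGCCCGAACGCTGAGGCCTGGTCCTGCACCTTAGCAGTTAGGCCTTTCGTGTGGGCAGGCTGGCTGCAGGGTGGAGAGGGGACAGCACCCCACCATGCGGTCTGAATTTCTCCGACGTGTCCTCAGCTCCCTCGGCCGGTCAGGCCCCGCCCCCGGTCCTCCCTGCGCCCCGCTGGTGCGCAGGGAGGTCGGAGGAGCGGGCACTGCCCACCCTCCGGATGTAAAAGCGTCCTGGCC
Tbx1, outer start: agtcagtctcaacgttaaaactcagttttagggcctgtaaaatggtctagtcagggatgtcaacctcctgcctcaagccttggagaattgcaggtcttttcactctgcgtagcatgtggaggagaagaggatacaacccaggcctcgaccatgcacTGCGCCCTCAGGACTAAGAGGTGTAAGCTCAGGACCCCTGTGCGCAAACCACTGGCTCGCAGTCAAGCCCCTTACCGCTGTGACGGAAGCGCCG
Tbx18: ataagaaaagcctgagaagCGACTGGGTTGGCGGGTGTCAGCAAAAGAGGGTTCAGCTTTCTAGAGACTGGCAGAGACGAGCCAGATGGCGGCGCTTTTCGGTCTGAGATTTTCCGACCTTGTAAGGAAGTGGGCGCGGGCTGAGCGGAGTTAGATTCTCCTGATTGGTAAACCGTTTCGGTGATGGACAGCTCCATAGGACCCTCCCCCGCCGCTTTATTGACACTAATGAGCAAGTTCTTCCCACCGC
Tbx20: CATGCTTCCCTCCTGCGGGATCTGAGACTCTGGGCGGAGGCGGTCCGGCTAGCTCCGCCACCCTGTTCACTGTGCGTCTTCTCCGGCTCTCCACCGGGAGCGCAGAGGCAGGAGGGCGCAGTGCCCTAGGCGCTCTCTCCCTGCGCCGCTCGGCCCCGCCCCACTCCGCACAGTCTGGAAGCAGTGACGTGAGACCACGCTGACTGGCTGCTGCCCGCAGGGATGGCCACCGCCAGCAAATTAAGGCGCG

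These windows are chr16:18588900-18589149 and chr16:18590672-18590921 for the inner and outer starts of Tbx1, chr9:87731261-87731510 for Tbx18 and chr9:24774304-24774553 for Tbx20. The inner Tbx1 window lay wholly inside a region of both D7 lists and had none at D5. The outer Tbx1 window had a region in the GLI1 list alone, over the 94 bases next to the start. The Tbx18 and Tbx20 windows were covered in all 3 lists, over 231 and 250 bases. The bases were 67.2% G or C in the inner Tbx1 window and 68.8% in that of Tbx20, against 54.4% at the outer Tbx1 start, 54% at Tbx18 and a median of 52.4% over 32851 promoter windows.

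Among 4 short motifs sought on both strands, 1 match was found in these 4 windows. It was AAGTG, the core of an NKX2-5 site, at 123 to 119 bases before the Tbx18 start, and 40.7% of all windows hold it. The GLI core CCACCCA, held by 8.11% of all windows, had no match in these 4. Nor did the short element of T-box factors, GGTGTGA, which 3.33% of windows hold. The GATA element AGATAA, held by 9.99%, had none either. None of the 4 motifs contains another.

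The lists themselves differed in length and in calling. The D5 list held 48177 peaks in 39436 regions, the D7 control list 59488 in 38771, and the GLI1 list 65318 in 43043. The value given for each peak is the authors' fold enrichment, the pileup at the summit over a background. In both D7 lists every fold was a whole multiple of 1 step to within 0.02 steps, as from a constant background. With a pseudocount of 1 the steps correspond to 4.56 reads per base in control and 4.70 with GLI1, which is 3.11% higher. D7 folds are therefore set side by side below. D5 folds, made otherwise, are printed beside them at some loci but cannot show a rise or fall from D5 to D7. The D5 list was also weaker, with a median −log10 q of 6.32 per peak against 16.5 in D7 control and 14.4 with GLI1.

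Of 10 marker genes of cardiac progenitors and cardiomyocytes, 4 had a summit within 1 kb of a gene end at D5, 6 in D7 control and 4 with GLI1. Over all 21887 protein-coding genes the share was 56.8%, 56.7% and 58.6%. Gata4, Mef2c, Myh6 and Myl7 had no such summit in any list, and Nkx2-5 and Tnnt2 had none with GLI1. In the same order of lists the counts were 3, 5 and 4 of 6 endothelial and blood markers, 5, 3 and 5 of 6 neural, 2, 2 and 3 of 5 endoderm, 3, 2 and 2 of 5 pluripotency, 4, 4 and 4 of 4 epicardial and fibroblast, and 2, 3 and 3 of 4 somite markers. Regions within 100 kb were also counted, as gained (GLI1 list, no overlapping control region) or lost (control list, no overlapping GLI1 region). Over all regions of the lists 39% were gained and 31.6% lost, or 36.8% and 29.2% within 100 kb of a gene. Endoderm markers had 17 of 28 gained (60.7%) and 0 of 10 lost, but 11 of the 17 gained regions were at Foxa2 alone. Neural markers had 19 of 36 gained (52.8%) and 6 of 22 lost (27.3%). The cardiac markers had 13 of 30 gained (43.3%) and 13 of 31 lost (41.9%). Endothelial and blood markers had 20 of 45 gained (44.4%) and 12 of 35 lost (34.3%). Pluripotency markers had 5 of 19 gained (26.3%) and 4 of 19 lost (21.1%). Epicardial and fibroblast markers had 6 of 15 gained (40%) and 8 of 18 lost (44.4%). Somite markers had 7 of 20 gained and 7 of 20 lost (35% each). The part of these other cell types in the values below was not tested.

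The 6 genes did not behave as 1 group. Tbx2, Tbx3, Tbx18 and Tbx20 each had a locus across one gene end that was accessible in all 3 lists. Tbx1 had a locus across a gene end with GLI1 alone, and Tbx5 had none at either end in any list. Of the 65 loci, 10 were in all 3 lists, 9 in both D7 lists, 18 with GLI1 alone, 8 in D7 control alone, 19 at D5 alone and 1 at D5 and in D7 control.

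**Figure D1:**
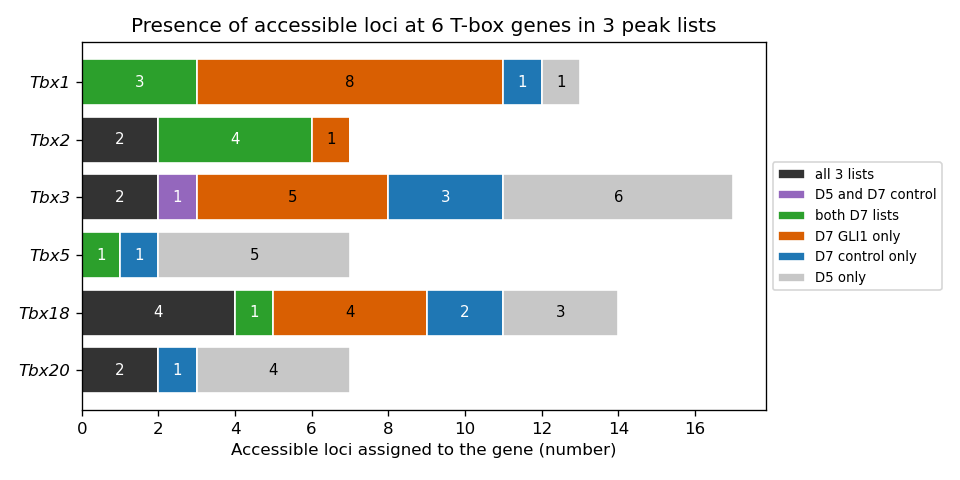
Number of accessible loci (x axis) at each T-box gene (y axis), coloured by the lists that hold a region there. Tbx1 has 8 loci with GLI1 alone, Tbx2 has none at D5 alone, and 5 of the 7 loci of Tbx5 are at D5 alone.

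Set against control, the GLI1 list had 18 gained regions at these genes, that is regions with no overlapping control region, among 39 (46.2%; Wilson 95% interval 31.6 to 61.4, which covers counting error only). Over all regions of the list 39% were gained, and 36.8% of those within 100 kb of a gene. The D7 control list had 9 lost regions of 30 (30%; 16.7 to 47.9), and 31.6% of all its regions were lost, or 29.2% of those within 100 kb of a gene. Both shares were close to those of the lists as a whole. With peaks limited to a −log10 q of at least 10, the gained share at these genes was 18.75% (3 of 16). The share over all regions was not computed at that limit, so this value has no background. The gained regions were also weak: 1 of 18 reached a fold of 5, against 23.2% of all gained regions, and 1 of 9 lost regions did, against 24.5%.

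**Figure D2:**
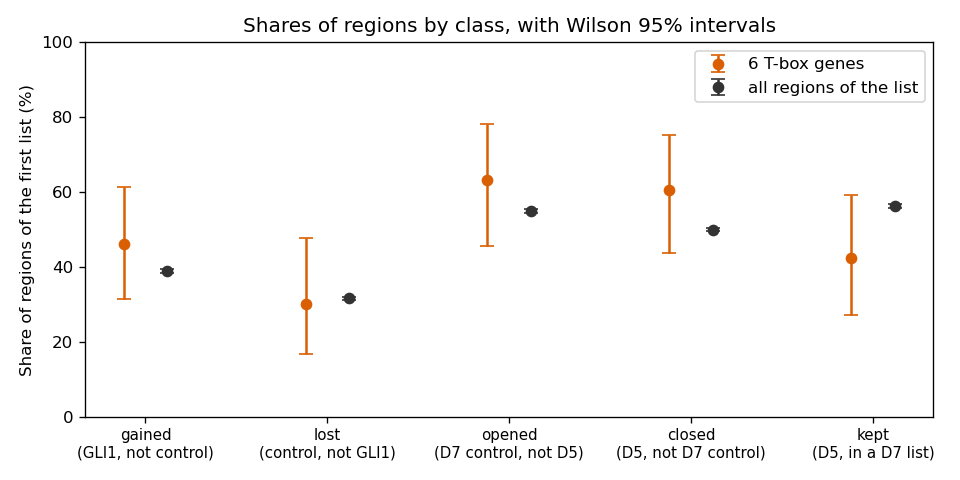
Share of regions (y axis, percent) in each class (x axis) at the 6 T-box genes and over all regions of the same list, with Wilson 95% intervals. The interval of the T-box genes takes in the share of all regions, at any distance from a gene, in each of the 5 classes. The comparison of GLI1 with D5 is not among them.

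Tbx1, the second heart field gene, had the most gained regions when no limit was set on q. At a −log10 q of at least 5 it had 5 gained regions, as did Tbx3, and at 10 it had 0. Tbx1 (gene ID 21380) lies at chr16:18580979-18590671, and it had 1 region at D5, 5 in D7 control and 11 with GLI1. With GLI1, 8 regions were gained and 1 was lost. Not one of the 11 regions in the GLI1 list overlapped a D5 region. The same held for the 5 regions in the D7 control list, and Tbx1 had only 1 D5 region that could be overlapped. Of 329 genes with at least 11 regions in the GLI1 list, 2 had no overlap with D5, Tbx1 included, a count made after its values were seen. The limit of 11 is the count of Tbx1 itself and takes in its 8 gained regions.

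The strongest Tbx1 region, chr16:18587705-18589316, covered the inner start shown above, with a fold of 11.5 in D7 control and 17.9 with GLI1. Next to it, chr16:18586317-18587419 had 11.2 in control and 13.3 with GLI1. Both had the higher fold with GLI1, by less than 2 times. How many shared regions of the whole lists are higher with GLI1 was not counted, so such directions, here and at Tbx2 and Tbx18 below, have no background. The remaining locus of both D7 lists, chr16:18601454-18602946, lay above the gene, with its leading GLI1 summit at 11.03 kb. There the control list had 2 regions with folds of 5.22 and 5.94, and the GLI1 list had 1 with 7.90. The control region with 5.94 had its summit at 18602538 and the GLI1 region at 18601697, so these folds are not of the same site. When shared regions had to have leading summits within 250 bases, Tbx1 still had 8 gained regions but 2 lost. The GLI1 region was then still shared with the control region of 5.22.

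The gained Tbx1 regions had folds of 2.98 to 4.56, near the lowest fold of the control list (2.52). The strongest of them, chr16:18590413-18590765, lay across the outer start shown above. Its summit was 62 bases (0.062 kb) from that start. Another 4 were packed between 18581512 and 18583396 in the lower part of the gene, 2 lay within 1 kb above the upper gene end, and the last was 5.56 kb above it. The lost region, chr16:18585646-18585918, had a fold of 3.96 in control. The lone D5 region, chr16:18580459-18580620, had a fold of 6.41 and lay 0.445 kb below the gene.

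Tbx2 and Tbx3, which encode repressors of the chamber programme, differed in how the regions assigned to them were spread. The nearest-gene rule bears on this difference. Bcas3 lies 6.56 kb below Tbx2 and Tbx4 lies 44.4 kb above it, and regions nearer to those genes were not counted for Tbx2. Tbx2 (gene ID 21385, chr11:85832615-85841948) had 2 regions at D5, 6 in D7 control and 8 with GLI1, in 7 loci close to the gene on both sides. Both of its D5 regions were kept in both D7 lists. It had 1 gained region, chr11:85831167-85831366, with a fold of 3.51, and 0 lost. No D5 or control region of Tbx2 was missing from the GLI1 list, but at a −log10 q of at least 10 it had 0 gained and 1 lost.

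At the lower end of Tbx2, chr11:85831784-85833601 had a fold of 7.26 in the D5 list, 14.4 in D7 control and 25.8 with GLI1. It was within the highest 26.8% of control regions and the highest 15.2% of GLI1 regions by −log10 q. Just above the gene, chr11:85843062-85845020 had 4.47 at D5, 13.0 in D7 control and 18.4 with GLI1. Across the upper end, chr11:85841710-85842753 had 10.8 in control and 13.3 with GLI1, and no D5 region. All 3 loci that held folds over 10 in both D7 lists had the higher fold with GLI1. The locus farthest below the gene went the other way: chr11:85829217-85829694 had 7.38 in control and 4.21 with GLI1.

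Tbx3 (gene ID 21386, chr5:119670534-119684724) had 9 regions at D5, 7 in D7 control and 7 with GLI1, over a gene-poor stretch on both sides. The annotation places Tbx5 111.8 kb above it and Med13l 905.1 kb below. Its strongest locus, chr5:119669835-119671489 across the lower gene end, had a fold of 8.71 at D5, 33.3 in D7 control and 32.6 with GLI1. The 2 D7 values differed by less than the 3.11% between the backgrounds of their lists. This was the highest fold at any of the 6 genes in both D7 lists.

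Away from that end, the D7 lists shared only 1 Tbx3 locus, chr5:119651414-119651999, with 6.60 in the D5 list, 3.60 in control and 4.56 with GLI1. The 5 gained regions had folds of 3.34 to 4.91, and 2 of them were inside the gene. The 4 lost regions had folds of 3.42 to 8.28, and the strongest, chr5:119687094-119687581, lay 2.53 kb above the gene. Of the 9 D5 regions, 6 were closed by D7 control, and 5 of these lay 26.4 to 90.0 kb below the gene. The strongest of them, chr5:119588465-119589143, had a fold of 8.43 at D5, within the highest 27.1% of that list.

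Tbx5 and Tbx20, which encode activators of chamber genes, had few regions at D7. Tbx5 (gene ID 21388, chr5:119796514-119885220) had 5 regions at D5, 2 in D7 control and 1 with GLI1. None of the 5 D5 regions was in a D7 list. Of 1639 genes with at least 5 D5 regions, 35 had this pattern, a count made after the values were seen. The D5 folds ran from 4.26 to 6.94, and the highest was inside the gene at chr5:119875038-119875827.

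In D7 control, Tbx5 had 1 region inside the gene, chr5:119831403-119831894, with a fold of 4.32, and with GLI1 it had none inside. Its other D7 locus, chr5:119741179-119741448, was 55.2 kb below the gene and had 5.22 in control and 4.74 with GLI1. This locus lay near the middle of the 111.8 kb gap between Tbx3 and Tbx5, so it went to Tbx5 by a narrow margin. It held the leading Tbx5 region of both D7 lists and the only one with GLI1. Tbx5 was the gene with the weakest leading region in both D7 lists.

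Tbx20 (gene ID 57246, chr9:24720812-24774303) had 7 regions at D5, 3 in D7 control and 2 with GLI1. The locus across its start, chr9:24773663-24775352, had a fold of 9.0 in the D5 list, 8.64 in D7 control and 10.5 with GLI1. It was also the strongest Tbx20 locus in each list. A second locus, chr9:24780930-24781406, was 6.84 kb upstream and had 3.88 at D5, 4.32 in control and 5.62 with GLI1. The remaining D5 loci, 4 in number and 8.20 to 76.7 kb upstream, had folds of 3.33 to 5.63 and no D7 region. The 1 lost region, inside the gene at chr9:24770398-24770639, had a fold of 3.42 in control.

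Tbx18 (gene ID 76365, chr9:87702800-87731260), the sinus venosus and epicardial gene, had 9 regions at D5, 7 in D7 control and 10 with GLI1. It held both the strongest gained region of the 6 genes and the 2 loci with the lowest ratio of GLI1 to control fold. The gained region, chr9:87654275-87654941, lay 48.1 kb below the gene with a fold of 14.6, within the highest 24.5% of the GLI1 list. The other 3 gained regions at Tbx18 had folds of 3.34 to 3.69.

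The 2 lower loci were at different distances from Tbx18. At chr9:87702149-87702711, 0.366 kb from the lower gene end, the fold was 23.8 in D7 control and 3.86 with GLI1, a ratio of 0.163. The same locus was within the highest 17.1% of control regions and had no D5 region. At chr9:87641568-87642747, 60.5 kb below the gene, the fold was 4.04 at D5, 13.9 in D7 control and 4.04 with GLI1, a ratio of 0.291 at D7.

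The other end of Tbx18 went the opposite way. The locus across its start, chr9:87729512-87731738, had a fold of 9.32 at D5, 16.4 in D7 control and 25.8 with GLI1. Upstream, chr9:87739518-87740111 had 4.06, 5.40 and 6.67 in the same order, and chr9:87740246-87741050 had 4.86, 6.30 and 8.25. All 3 were in every list and had the higher D7 fold with GLI1. Tbx18 also had the D5 locus of highest fold among the 6 genes, chr9:87618288-87618789, with 12.1 at 84.2 kb below the gene. No D7 list had a region there. By −log10 q it came just below the D5 region at the lower end of Tbx3 (22.57 against 22.67).

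**Figure D3:**
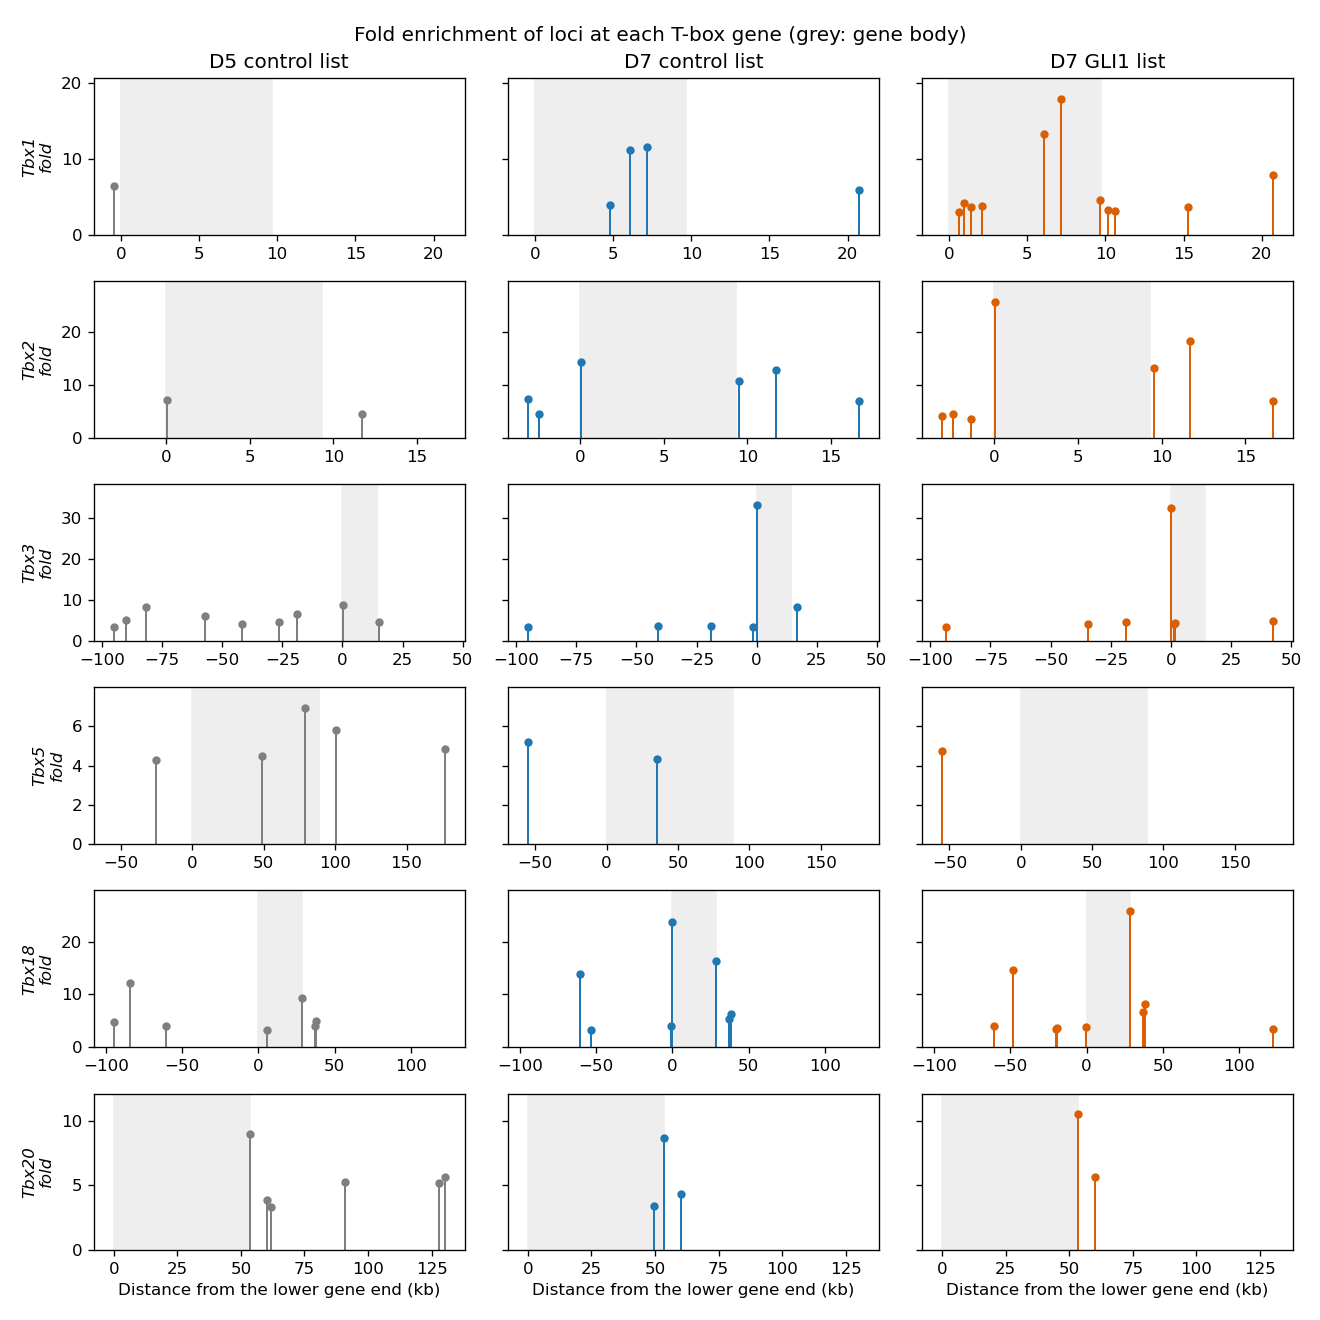
Fold enrichment (y axis, authors' values, 1 scale per gene) of the leading region of each locus against its distance in kb from the lower gene end (x axis), for the D5, D7 control and D7 GLI1 lists, with the gene body in grey. The strongest far D5 loci of Tbx3 (8.43) and Tbx18 (12.1) have no stem in the D7 panels, and the Tbx18 stem of 23.8 at the lower gene end in control stands at 3.86 with GLI1. Stem heights at D5 cannot be compared with those at D7.

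Over the 21 shared regions of the GLI1 list at the 6 genes, 0 had a fold at least 2 times that of control, against 3.96% of all shared regions, and 3 had at most 1/2 of it, against 10.6%. Of those 3, 2 are the Tbx18 loci above. The other is a small side region of the Tbx2 locus at its upper end, whose leading region was higher with GLI1. The imbalance depends on the cut: at a ratio of 1.5, 3 of 21 were higher with GLI1 and 4 of 21 lower. The share of all shared regions was not computed at that ratio. Ratios of 2 list folds carry no error estimate here, because the spread between the pooled libraries cannot be known from 1 list per group. The share of all shared regions with any higher fold with GLI1 was not counted.

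**Figure D4:**
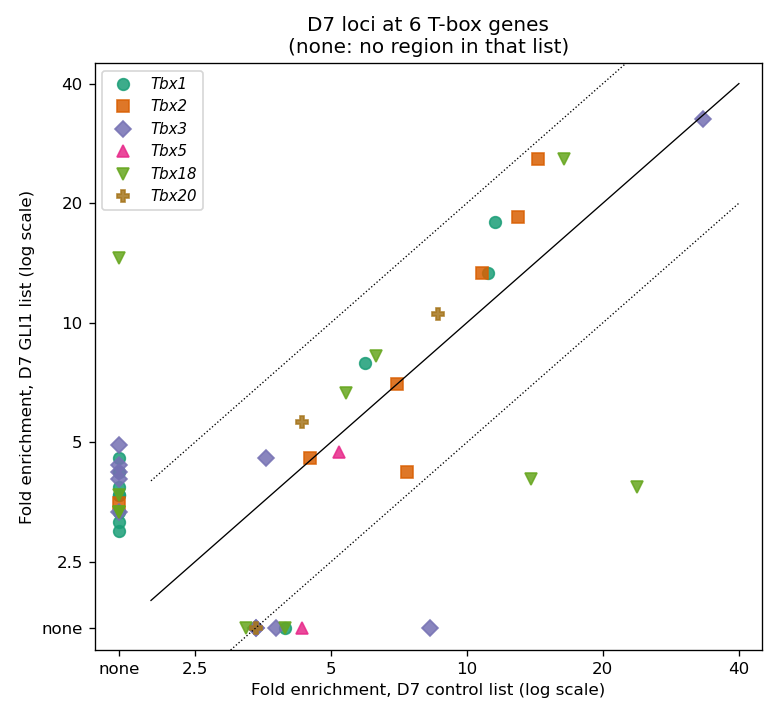
Fold enrichment in the D7 GLI1 list (y axis, log scale) against that in the D7 control list (x axis, log scale) for each D7 locus, with points at "none" where a list has no region; the solid line marks equal folds and the dotted lines a ratio of 2. Most shared loci lie near or just above the solid line, and the 2 Tbx18 points at 13.9 and 23.8 in control lie below the lower dotted line.

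Between D5 and D7 control, 19 of 30 D7 control regions at these genes were opened, that is absent at D5 (63.3%; 45.5 to 78.1), while 55% of all D7 control regions were, and 52.6% of those within 100 kb of a gene. Of the 33 D5 regions, 20 were closed by D7 control (60.6%; 43.7 to 75.3), against 50% of all D5 regions, and against 45.2% of D5 regions within 100 kb of a gene. Tbx1 and Tbx2 had 5 and 4 opened regions with 1 and 0 closed. Tbx5 and Tbx20 had 2 and 1 opened with 5 closed each, Tbx3 had 4 and 6, and Tbx18 had 3 and 3.

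The D5 regions of these genes often lay far from the gene. At D5, 14 of 33 (42.4%) lay over 20 kb from their gene, against 14.2% of all D5 regions within 100 kb of a gene. In D7 control 5 of 30 (16.7%) did, against 12.1%, and with GLI1 8 of 39 (20.5%), against 12.2%. Regions inside the gene made up 15.2%, 23.3% and 28.2% in the same order, against 58.3%, 59.4% and 59.5% of all. The lengths of the 6 genes run from 9.33 kb (Tbx2) to 88.7 kb (Tbx5), and Tbx3, Tbx5 and Tbx18 have gaps of over 100 kb on both sides, and the part of gene length and spacing in these shares was not tested.

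GLI1 and D5 could also be set side by side. At the 6 genes 28 of 39 GLI1 regions were absent at D5 (71.8%; 56.2 to 83.5), against 56.9% of all GLI1 regions and 54.8% of those within 100 kb of a gene. Of the D5 regions, 20 of 33 were absent with GLI1 (60.6%; 43.7 to 75.3), against 46.7% of all and 41.9% of those within 100 kb of a gene. Both intervals, of counting error only, take in the share of all regions but not that within 100 kb of a gene. Of the 18 gained regions 0 overlapped a D5 region, which leaves a Wilson upper bound of 17.6%, while 13.5% of all gained regions did. Of the 9 lost regions 1 did, at Tbx3, against 8.95% of all lost regions. In either D7 list, 14 of 33 D5 regions were found (42.4%; 27.2 to 59.2), against 56.3% of all. That share was not computed for regions within 100 kb of a gene.

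The 11 other T-box genes had 23 regions at D5, 21 in D7 control and 22 with GLI1, of which 8 were gained (36.4%) and 6 lost (28.6%). More regions were gained than lost at 3 of them, fewer at 1 and as many at 7. From D5 to D7 control, 13 of their 21 control regions were opened (61.9%) and 14 of 23 D5 regions closed (60.9%). At the 6 heart genes these shares were 63.3% and 60.6%. Tbr1, a cortical neuron factor, had 1 gained and 0 lost, and Tbx15 had 2 and 1. Tbx4, the hindlimb gene next to Tbx2, had 2 gained and 3 lost. Eomes, a mesendoderm factor, had 0 of either and 2 opened with 4 closed, and Tbx19 had 0 opened and 5 closed.

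Genes for partners of T-box factors in the heart, 12 in number, had 22 of 60 GLI1 regions gained (36.7%) and 19 of 60 control regions lost (31.7%). Mef2c had 4 gained and 0 lost, and Sall4 had 2 and 0, whereas Hand1 had 0 and 3 and Tle3 had 3 and 5. Of 19 genes described as T-box targets, 9 had more gained than lost regions and 2 fewer, with 32 of 79 regions gained (40.5%) and 17 of 63 lost (27.0%). Foxf1, a forkhead factor of lateral mesoderm, led with 6 gained and 0 lost, and Osr1 had 2 and 0. Bmp10 had 0 gained and 1 lost. Between D5 and D7 control, 30 of 60 partner gene regions were opened (50%) and 33 of 68 D5 regions closed (48.5%), with 11 and 9 at Tle3, 3 and 1 at Smarcd3, 3 and 5 at Hand2 and 0 and 3 at Gata4. Of the target gene regions, 32 of 63 were opened (50.8%) and 40 of 76 closed (52.6%). The shares of both gene lists were near the 55% opened and 50% closed of all regions. Bmp2, a ligand of the atrioventricular canal, and Has2, the hyaluronan synthase of the cardiac cushions, each had 1 opened and 7 closed. All 3 lists of genes had shares of gained and lost regions near the 39% and 31.6% of the whole lists.

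The farthest member summits lay 95.3 kb from Tbx3 at D5 (fold 3.40) and 95.1 kb from it in D7 control (3.42), in the same locus. The nearest summits left out lay 100.3 kb from Tbx20 at D5 (5.63) and 106.5 kb from Tbx20 with GLI1 (3.51).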

How the data were processed

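ATAC-seq libraries (8 in 3 groups) were represented by 3 deposited narrowPeak lists, 1 for each group. Per the submitters' processing notes, the tools were MACS2 2.1.1, Bowtie2 2.3.2, Picard and SAMtools 1.5, and the build was mm10; settings are not given in the sources used here. The D7 control list was matched to its group by its name, which pairs with the doxycycline list and gives no day, so its place at D7 is an inference. The authors' columns give each peak a fold enrichment (a ratio), a −log10 q and a score that is 10 times it, cut to a whole number; a further deposited column, the summit offset, is in bases. Depth entered only through the background of each D7 list.

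Peaks were assigned by summit to the nearest of 21887 RefSeq protein-coding gene intervals (GRCm38.p6), merged and overlapped (at least 1 base) in Python 3.11.15 with pandas 2.3.3. These functions were tested on simulated intervals. Wilson intervals came from SciPy 1.17.1. RefSeq promoter windows gave strand for Tbx1, Tbx18 and Tbx20 only, so "below" and "above" refer to lower and higher coordinates, "upstream" is used for genes of known strand, and exons are not given. The text names all 6 genes, the region at each gene end, the strongest region in each list and class, and the extreme genes at either end of each other list, of which some target genes are not reported here. The members and lists were chosen with earlier results of these data known. Of 9 alternatives, 2 were added after the data were seen.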

Additional observations from a re-analysis of the deposited data

How the results depend on the processing

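No paired analysis was possible because a single peak list stands for all libraries of a group, which also kept single libraries from being left out. Of 9 alternatives, 7 were planned; genes with a curated RefSeq protein and a fold ratio of 1.5 were chosen after seeing the data. For the shares, 51 of 58 recomputed values stayed within the Wilson interval of the value reported. That tally is a weak check. Taking the nearest gene end, or curated genes only, changed none of the counts, and the intervals are wide (31.6 to 61.4 for the gained share). The 7 exceptions follow. At a −log10 q of at least 5, 84% of D7 control regions were opened. At a −log10 q of at least 10, 18.75% of GLI1 regions were gained, 33.3% of D5 regions were closed, 66.7% of D5 regions were in a D7 list, and 0 of 13 shared regions had a fold at most 1/2 of control, since the weak regions of Tbx18 and Tbx2 with GLI1 no longer passed. Within 25 kb of a gene, 42.1% of D5 regions were closed and 63.2% were in a D7 list. With that same limit of 10 the gained minus lost count turned to −1 at Tbx2, −1 at Tbx18 and 1 at Tbx20, and that of Tbx1 went from 7 to 0. At 5 that of Tbx1 was 4. The share of gained regions ran from 18.75% to 51.3% over these settings, and that of lost regions from 20% to 36.7%. The low −log10 q of the D5 list limits each comparison with D5.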

Other observations

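Beyond 100 kb, and so in no comparison above, 3 D5 peaks, 16 D7 control peaks and 11 GLI1 peaks still had one of these genes as the nearest. They were chosen after their values were seen, and which gene they act on, if any, is not known from these data. In the gene-poor stretch below Tbx3, chr5:119377854-119379064 lay 292.1 kb from the gene with a fold of 45.5 in D7 control, above every region within 100 kb of the 6 genes. With GLI1 the region there, chr5:119377933-119378835, had a fold of 11.8, and D5 had no region whose nearest gene was Tbx3 beyond 100 kb. At chr5:119462694-119463592, 207.3 kb from Tbx3, control had 18.7 and GLI1 6.85. These were the 2 strongest far Tbx3 loci, and both had the lower fold with GLI1. Weaker far Tbx3 loci differed: chr5:119472376-119472643 had a fold of 4.91 in the GLI1 list alone, chr5:119530081-119530280 had 3.78 in control and 3.69 with GLI1, and others, such as chr5:119325801-119326520 with 9.18, were in control alone.

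Far below Tbx18, chr9:87504574-87506014 lay 197.2 kb from the gene where the GLI1 list had a fold of 29.8, within its highest 12.8%. D5 had a region there with a fold of 6.17, and D7 control had none. At chr9:87556342-87557493, 145.9 kb from Tbx18, control had a fold of 17.3, the GLI1 list had 5.44 at its highest and D5 had 8.08. The far loci of Tbx18 thus moved in both directions, as did the nearer loci at 48.1 and 60.5 kb.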
